A study of Mus musculus with 6 samples.

Results

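The CDK inhibitors are 7 genes of 2 protein families. Cdkn1a, Cdkn1b and Cdkn1c encode the CIP/KIP proteins p21, p27 and p57, and Cdkn2a, Cdkn2b, Cdkn2c and Cdkn2d encode the INK4 proteins p16, p15, p18 and p19. They were chosen by gene name and not by a cutoff on their values, though earlier results of these data were known. All 7 are listed among the 55487 genes measured. RNA was measured in vascular endothelial cells (VECs) that were FAC-sorted from mouse retinas at P7.5. The paper gives noon as the time at which the retinas were collected. The study asked which transcripts change when the circadian clock factor Bmal1, the product of Arntl, is lost from VECs while the retinal vessels grow. The 3 libraries labelled Bmal1;CKO came from animals with 2 floxed Bmal1 alleles (Bmal1 FL/FL), and the 3 control libraries from animals without them. Both groups carried 1 tdTomato reporter allele (tdTomato FL/+) and the transgene Pdgf-icreER, which drives a tamoxifen-inducible Cre and GFP. Tamoxifen was given to both between P0.5 and P2.5, and cells positive for GFP and tdTomato were collected. The study's methods give 3 animals per genotype as biological replicates. The libraries are numbered 1 to 3 (control) and 4 to 6 (Bmal1;CKO), as in the deposited table.

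CDK inhibitors bind the kinases that drive the cell from G1 into S phase. INK4 proteins bind CDK4 and CDK6 and keep D-type cyclins away from them, whereas CIP/KIP proteins bind complexes of cyclins with their kinases, above all those of CDK2. Active kinases phosphorylate the pocket proteins (RB1 and its relatives) and release E2F factors, which transcribe the genes of S phase. In vessels, p27 is known for the arrest of endothelial cells that become arterial, and p21 is the classical target of p53.

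No CDK inhibitor gene differed between the Bmal1;CKO and control libraries of sorted VECs beyond the spread between libraries. The libraries also held transcripts of other retinal cells, and the part of VECs in the counts was not tested. Of the 7 genes, 6 had enough reads to be tested (at least 10 reads in at least 3 libraries), and Cdkn2a did not. Values are normalized counts, which are reads divided by the size factor of the library, and differences are log2 fold changes on the scale of log2(normalized count + 1), Bmal1;CKO over control. Of the 6 genes tested, 5 had a positive and 1 a negative log2 fold change, with a median of 0.09 beside 0.11 over all 20459 genes tested. With limma-trend, 0 of the 6 were at an unadjusted p under 0.05, where 4.92% of all genes tested were (3.17% higher and 1.75% lower in Bmal1;CKO), and 0 were at FDR < 0.05, where 0% of all genes were. The same count of 0 was found with edgeR, DESeq2 and limma-voom. Over all genes, DESeq2 put 1216 at an unadjusted p under 0.05, limma-voom 996 and edgeR 777 or 792, depending on the scaling. At FDR < 0.05 DESeq2 put 67 genes, and edgeR and limma-voom put 0. In 0 of the 6 genes did the 3 libraries of a genotype lie wholly above or below the other 3, which was so for 11.2% of all genes (6.62% higher and 4.54% lower in Bmal1;CKO). Since 3 libraries were set against 3, an exact permutation test could not go below p = 0.1. The intervals of the differences were wide: the 95% interval lay within a 2-fold change in either direction for 2 genes only, Cdkn1c and Cdkn2d.

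**Figure D1:**
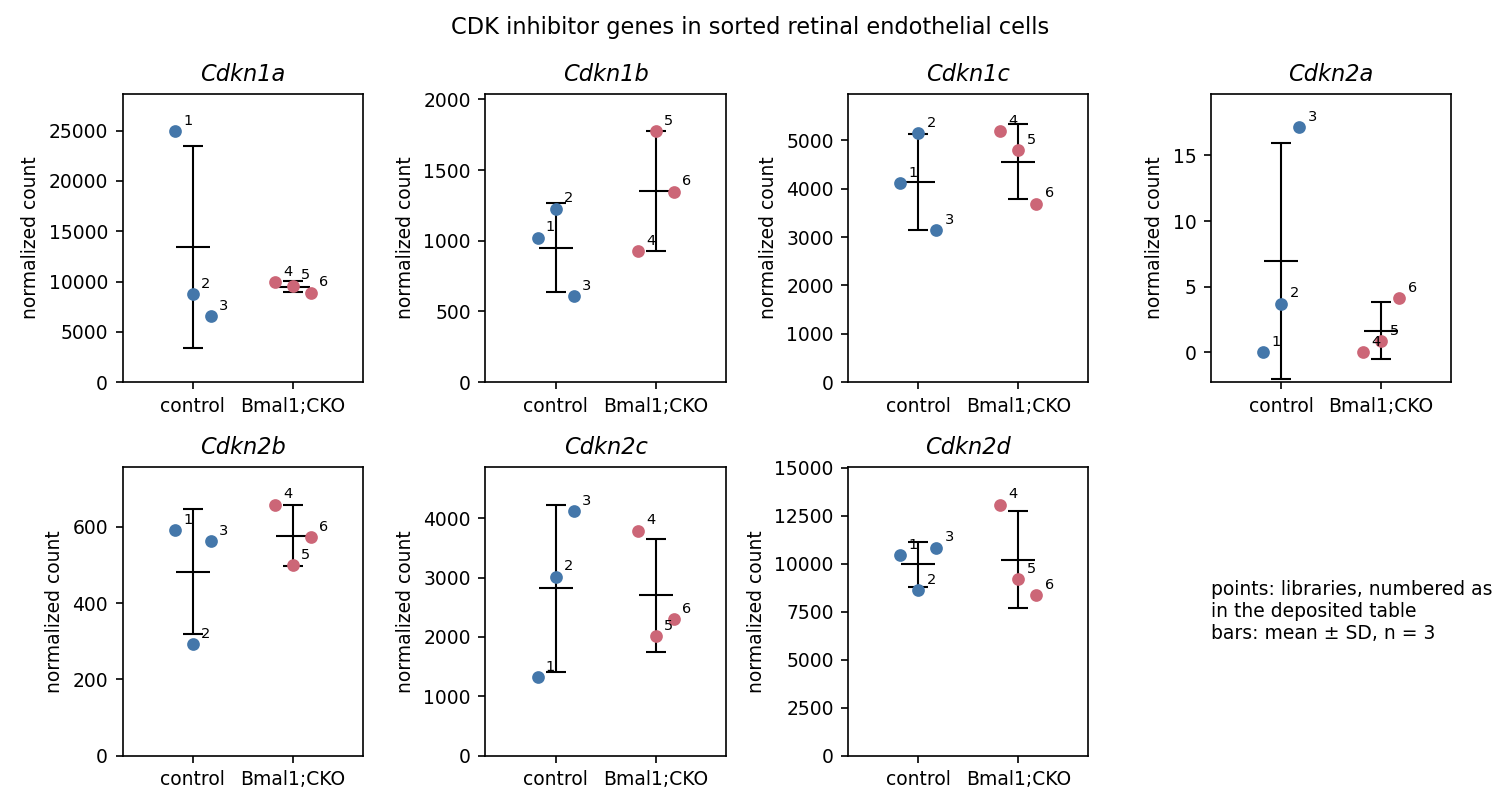
Normalized counts (y axis, 1 panel per gene, linear and from 0 except for Cdkn2a) of the 7 CDK inhibitor genes in 3 control and 3 Bmal1;CKO libraries, with the library number beside each point and bars for the mean ± SD. The genotypes overlap in every panel, and a single control library, number 1, carries the high Cdkn1a value of 24954.

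Arntl itself was read first, as the targeted gene. It had 1700, 3489 and 2928 normalized counts in control and 1779, 2747 and 2415 in Bmal1;CKO, and the groups overlapped. Its log2 fold change was -0.19 ± 0.36 (SE, n = 3 and 3), with a 95% interval of -1.01 to 0.64 and an adjusted p of 0.924 in limma-trend, and it was 0.029 when control library 2 was left out. The count covers the whole gene, with exons that a floxed allele keeps, so it does not check the recombination, and the genotypes below rest on the labels. The paper measured Bmal1 transcript by droplet digital PCR in FAC-sorted endothelial cells of both genotypes. It reports a significant reduction in the mutant and takes this as effective deletion.

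Among the CIP/KIP genes, Cdkn1a (ENSMUSG00000023067; GRCm38, chromosome 17, 29090976 to 29100727, plus strand) encodes p21, which halts the cycle after DNA damage. It had 24954, 8735 and 6575 normalized counts in control and 9973, 9591 and 8891 in Bmal1;CKO. Control library 1 stood at the top of all 6 and control library 3 at the bottom, with the 3 Bmal1;CKO libraries close together between them. The coefficient of variation was 74.8% in control and 5.79% in Bmal1;CKO. Means were 13421 ± 10046 and 9485 ± 549 (SD, n = 3 each), and the log2 fold change was -0.25 ± 0.47 (SE), with a 95% interval of -1.35 to 0.85. The adjusted p was 0.921 in limma-trend, and the exact permutation test gave p = 1 (two-sided). Without control library 1 the log2 fold change turned positive, at 0.32. The exons of Cdkn1a overlap a gene of unknown status on the opposite strand, AC167363.2, which held 0 to 94 reads per library beside 7091 to 20281 for Cdkn1a. Whether the counting used strand is not given in the sources used here.

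Cdkn1a has 2 annotated start regions, and the 250 bases before each are shown because they bear on the known regulators of this gene, p53 and the clock factors. The sequences are those of RefSeq for GRCm38.p6, read on the plus strand from 5′ to 3′, and capitals mark a p53 response element.
Cdkn1a, upstream start, chr17:29090729-29090978: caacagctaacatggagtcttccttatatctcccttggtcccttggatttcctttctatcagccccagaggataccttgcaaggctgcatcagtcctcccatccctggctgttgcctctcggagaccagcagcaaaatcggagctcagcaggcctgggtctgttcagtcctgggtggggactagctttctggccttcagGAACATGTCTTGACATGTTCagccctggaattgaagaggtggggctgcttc
Cdkn1a, downstream start, chr17:29093519-29093768: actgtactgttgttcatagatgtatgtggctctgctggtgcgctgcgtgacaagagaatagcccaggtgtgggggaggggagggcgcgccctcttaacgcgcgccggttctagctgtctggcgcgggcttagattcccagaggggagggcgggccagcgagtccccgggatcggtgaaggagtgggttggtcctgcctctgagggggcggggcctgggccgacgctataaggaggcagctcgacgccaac

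The element of the first sequence lies 32 to 51 bases before the start. It was searched as 2 p53 half-sites back to back (20 bases) with at most 1 mismatch, a pattern chosen after the sequence had been seen, and 22 of 32851 RefSeq promoter windows of the same length held it (0.067%). The windows run from 250 bases before to 50 after a start, and 6 of the 7 genes had at least 1 of the 9 windows found. Cdkn1c had none. The E-box CACGTG, the motif that BMAL1 and CLOCK bind, was in neither Cdkn1a window, and neither was the half-site AGGTCA bound by ROR and REV-ERB receptors. These letters were searched on both strands and occurred in 7.15% and 16.3% of all windows. A match of this kind is a description of the letters and not of binding, and a gene count does not tell the starts apart.

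Cdkn1b (ENSMUSG00000003031; chromosome 6, 134920401 to 134925513, plus strand) encodes p27, which holds cells in quiescence. It had 1022, 1228 and 606 normalized counts in control and 928, 1775 and 1347 in Bmal1;CKO. Both of the highest libraries were Bmal1;CKO and the lowest was control, but library 4 lay below control libraries 1 and 2. Means were 952 ± 317 and 1350 ± 423 (SD, n = 3 each), with a log2 fold change of 0.51 ± 0.42 (SE) and a 95% interval of -0.47 to 1.50. This was the highest value among the 6 genes tested, and it did not pass the test (limma-trend adjusted p = 0.883; exact permutation p = 0.4). The interval runs from 1.38-fold lower to 2.82-fold higher. It stayed positive in all 15 alternative settings, from 0.22 to 0.76.

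Cdkn1c (ENSMUSG00000037664; chromosome 7, 143458339 to 143461050, minus strand) encodes p57, the product of an imprinted gene that acts mainly in development. It had 4123, 5149 and 3149 normalized counts in control and 5191, 4792 and 3692 in Bmal1;CKO. The top 2 values, 5191 and 5149, came from different genotypes. The log2 fold change was 0.15 ± 0.28 (SE, n = 3 and 3), with a 95% interval of -0.51 to 0.81, an adjusted p of 0.920 in limma-trend and an exact permutation p of 0.6. Leaving out control library 3 turned the log2 fold change to -0.030. An antisense gene that overlaps it, Gm44732, had at most 1 read in any library. Cdkn1c lies on the same chromosome as Arntl, 30144212 bases away.

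Of the INK4 genes, Cdkn2a (ENSMUSG00000044303; chromosome 4, 89274471 to 89294653, minus strand) was close to absent from the libraries. Its locus encodes p16 and, from another first exon and reading frame, the p53-stabilizing protein ARF, and the count does not tell the transcripts apart. It had 0, 4 and 24 reads in control and 0, 1 and 5 in Bmal1;CKO, 34 in all, while each library held between 71145068 and 104017800 reads on genes. As normalized counts these were 0, 3.71 and 17.1 in control and 0, 0.864 and 4.12 in Bmal1;CKO. A single library, control 3, reached 10 reads, and the 0 in libraries 1 and 4 allows up to 3.69 and 4.22 normalized counts (3 reads, for counting error only). No fold change is given at this depth, and the exact permutation test of the normalized counts gave p = 0.7.

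Cdkn2b (ENSMUSG00000073802; chromosome 4, 89306299 to 89311039, minus strand) lies 11645 bases from Cdkn2a and encodes p15, known as a target of TGFβ signaling. In contrast to its neighbor it was read in every library, with 591, 293 and 562 normalized counts in control and 658, 499 and 573 in Bmal1;CKO. Control library 2 was the low one, and the other 5 lay between 499 and 658. Means were 482 ± 164 and 577 ± 79.6 (SD, n = 3 each), and the log2 fold change was 0.32 ± 0.47 (SE), with a 95% interval of -0.78 to 1.41 (limma-trend adjusted p = 0.906; exact permutation p = 0.6). Without control library 2 it was -0.0066.

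Cdkn2c (ENSMUSG00000028551; chromosome 4, 109660876 to 109667189, minus strand) encodes p18 and varied most among the INK4 genes tested. It had 1329, 3016 and 4121 normalized counts in control and 3792, 2016 and 2298 in Bmal1;CKO. The lowest and the highest of the 6 were both control libraries, 3.10-fold apart. Means were 2822 ± 1406 and 2702 ± 954 (SD, n = 3 each), with a log2 fold change of 0.03 ± 0.47 (SE) and a 95% interval of -1.06 to 1.12 (limma-trend adjusted p = 0.992; exact permutation p = 1). The direction was not stable: it was -0.44 without control library 1, -0.24 without Bmal1;CKO library 4 and -0.076 in edgeR with TMM scaling.

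Of the 6 CDK inhibitor genes with a RefSeq promoter window, Cdkn2c alone had an E-box there, at the start of its shorter transcript. Cdkn1c had no window to search. The E-box was thus in 1 of the 9 windows, where 7.15% of all windows held it. The box is shown with its flanks, on the minus strand from 5′ to 3′, with the 6 bases of the E-box in capitals.
Cdkn2c, E-box, chr4:109665324-109665347: ctgaataatCACGTGtgaatcgag

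These capitals are bases 35 to 40 of the transcript, so the box lies just inside the transcribed part. The same window held TGACCT, the reverse complement of AGGTCA, 175 to 180 bases before the start, and the window of the Cdkn2a internal start held AGGTCA 62 to 67 bases before it. No 2 of the matches overlapped. TATAAA, searched on both strands and found in 13.6% of all windows, was in 0 of the 9.

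Cdkn2d (ENSMUSG00000096472; chromosome 9, 21288410 to 21291407, minus strand) encodes p19, an INK4 protein found in many tissues. It had the narrowest range of the 6 genes tested, with 10446, 8630 and 10848 normalized counts in control and 13087, 9198 and 8363 in Bmal1;CKO. The highest and the lowest library were both Bmal1;CKO, 1.56-fold apart, and only 5.43% of all genes tested had a narrower range. Means were 9975 ± 1182 and 10216 ± 2521 (SD, n = 3 each). The log2 fold change was 0.01 ± 0.26 (SE), with a 95% interval of -0.59 to 0.62 (limma-trend adjusted p = 0.993; exact permutation p = 1). It was -0.087 when control library 2 was left out and -0.18 when Bmal1;CKO library 4 was.

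**Figure D2:**
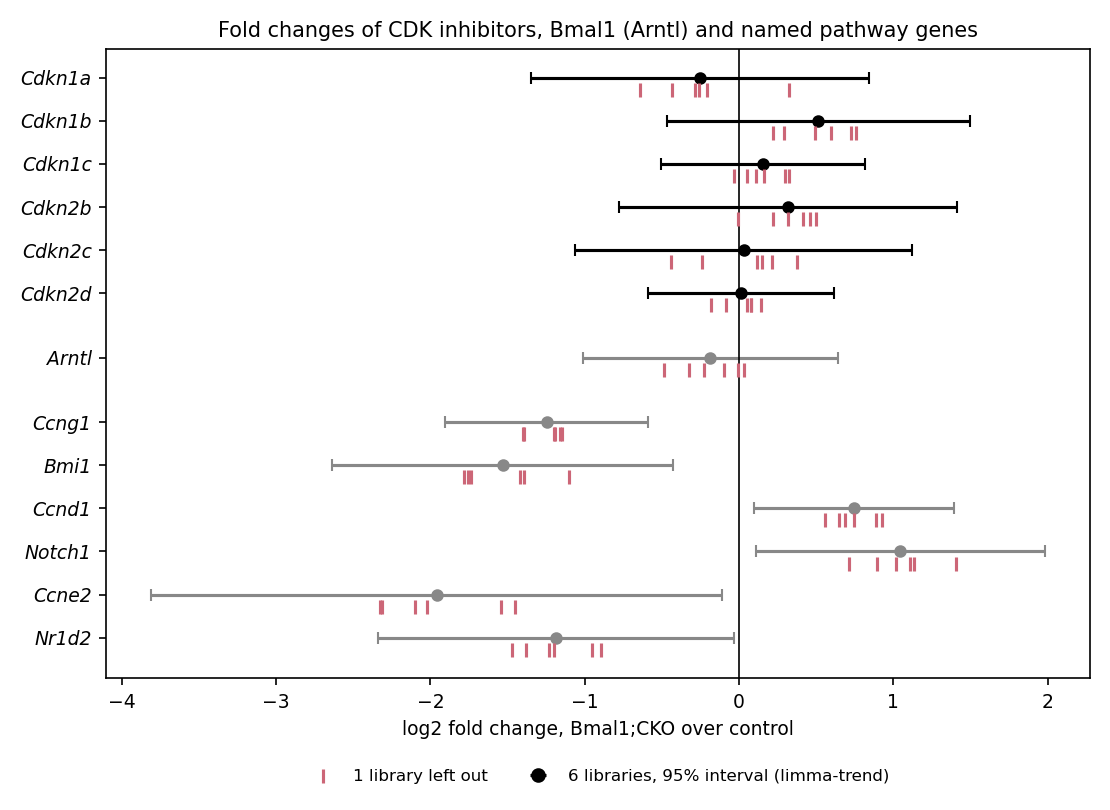
Log2 fold change (x axis, Bmal1;CKO over control) of the 6 CDK inhibitor genes tested (black), of Arntl and of the pathway genes picked for an unadjusted p under 0.05 (gray), with the 95% interval of limma-trend over 6 libraries and red ticks for the fits with 1 library left out. All 6 intervals of the inhibitors span 0, and the ticks of Cdkn1a run from -0.64 to 0.32.

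Levels of the inhibitors were compared with each other only per length, as normalized counts per kilobase of exon. They are levels in libraries that also held transcripts of other retinal cells. In this order of means over the 6 libraries, Cdkn2d came first with 6414 and Cdkn1a second with 3223, and they were followed by Cdkn1c with 2133, Cdkn2c with 1028, Cdkn2b with 381, Cdkn1b with 253 and Cdkn2a with 3.67. The steps from Cdkn1c to Cdkn2c, from Cdkn2c to Cdkn2b and from Cdkn1b to Cdkn2a held in 6 of 6 libraries. Cdkn2d and Cdkn1a overlapped over the libraries and kept their order in 5 of 6, with control library 1 the exception, where Cdkn1a stood at 7023 and Cdkn2d at 6637. Cdkn1a and Cdkn1c also overlapped (5 of 6), as did Cdkn2b and Cdkn1b (4 of 6). When length was taken as the median of the coding transcripts, Cdkn1b (481) passed Cdkn2b (381) and the rest of the order stood.

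**Figure D3:**
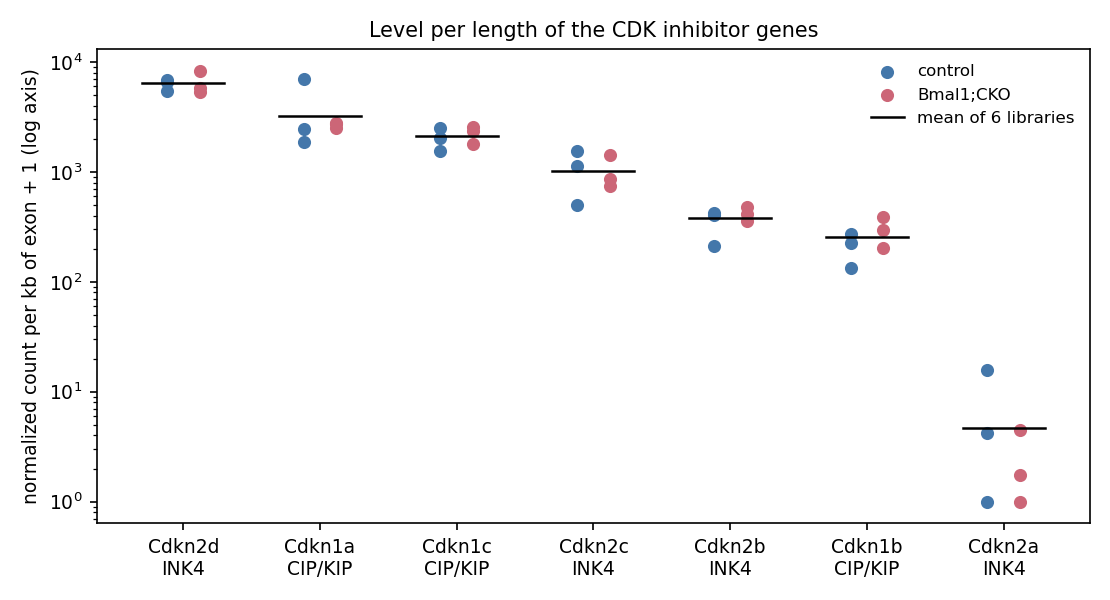
Normalized count per kilobase of exon + 1 (y axis, log scale) of the 7 CDK inhibitor genes in 3 control and 3 Bmal1;CKO libraries, with a line for the mean of the 6. Means fall from 6414 for Cdkn2d to 253 for Cdkn1b, and Cdkn2a lies far below with 3.67.

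The makeup of each family by level per kilobase did not differ between the genotypes beyond the spread between libraries: the lowest exact permutation p of any share was 0.3. The CIP/KIP genes gave 55.1%, 43.5% and 28.5% of the summed level of all 7 genes in control and 35.3%, 43.9% and 41.2% in Bmal1;CKO. The 3 control libraries spanned the whole range, and the means were 42.4% ± 13.3 and 40.1% ± 4.41 (SD, n = 3 each; exact permutation p = 0.9). Within CIP/KIP, Cdkn1a gave 75.8% in control library 1 and 46.8% to 54.3% in the other 5, Cdkn1c 21.8% to 48.1% and Cdkn1b 2.42% to 7.17%. Within INK4, Cdkn2d gave 77.9% to 87.8%, Cdkn2c 6.55% to 17.3%, Cdkn2b 3.09% to 6.26% and Cdkn2a at most 0.165%. The share of Cdkn2d had a mean of 82.0% ± 5.16 in control and 82.1% ± 1.74 in Bmal1;CKO (SD, n = 3 each).

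The ratio of 2 genes within a library does not depend on its scaling. The ratio of Cdkn1a to Cdkn1b normalized counts was 24.4, 7.11 and 10.9 in control and 10.7, 5.40 and 6.60 in Bmal1;CKO (exact permutation p = 0.2). Library 1 was the highest, and Bmal1;CKO library 4 lay above control library 2, so the groups overlapped. The ratio of Cdkn1a to Cdkn2c was 18.8 in control library 1 and 1.60 to 4.76 in the other 5 (exact permutation p = 0.9).

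The inhibitors did not follow a single pattern over the libraries, though some shared their highest or lowest library. In control library 1, Cdkn1a was 1.27 above its own mean over the 6 libraries on the log2 scale, and Cdkn2c was 0.95 below its mean. Control library 3 held the lowest value of all CIP/KIP genes, Cdkn1a (0.65 below), Cdkn1b (0.85 below) and Cdkn1c (0.44 below). It also held the highest Cdkn2c (0.68 above). Bmal1;CKO library 4 held the highest Cdkn1c (0.28 above), Cdkn2b (0.36 above) and Cdkn2d (0.39 above). Cdkn1b was highest in Bmal1;CKO library 5 (0.70 above), and Cdkn2b lowest in control library 2 (0.81 below). Cdkn1a and Cdkn2c were the pair with the least alike profiles, with a root mean square difference of 1.11 (log2), and Cdkn2b and Cdkn2d the most alike pair, with 0.304.

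**Figure D4:**
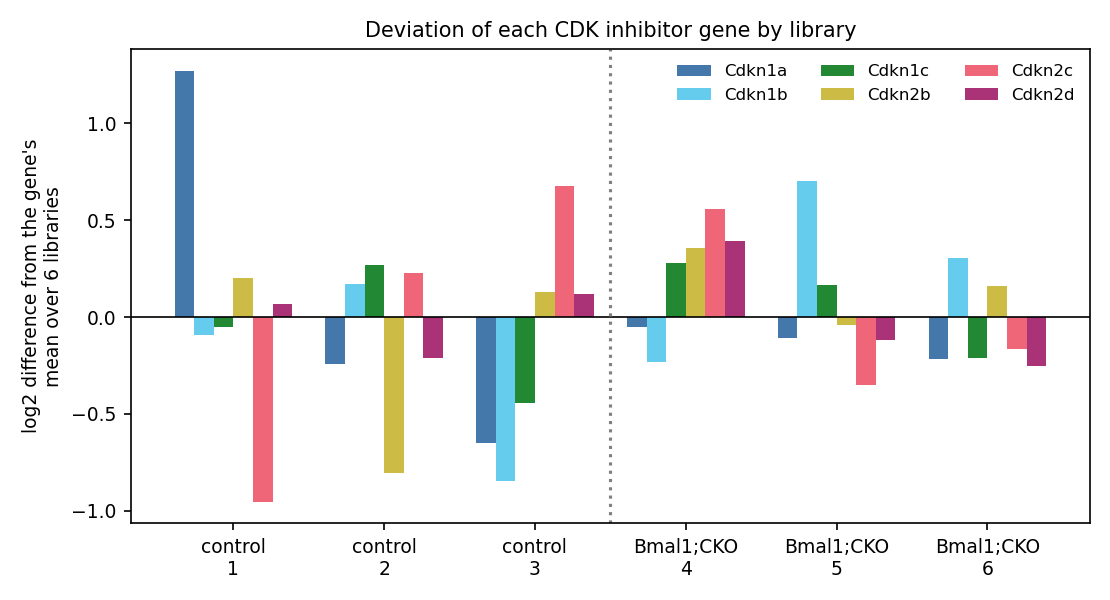
Log2 difference of each CDK inhibitor gene from its own mean over the 6 libraries (y axis), by library (x axis), with control libraries left and Bmal1;CKO libraries right of the dotted line. Bars go both ways in every library, and control library 1 holds the extremes, Cdkn1a at 1.27 and Cdkn2c at -0.95.

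Markers of other retinal cells also moved with the library. All 14 endothelial markers had at least 10 reads in every library, as did 9 of 9 microglial, 12 of 12 rod and 8 of 8 bipolar cell markers, so the libraries held transcripts of other cell types. Without scaling for length, the median endothelial marker had 3542 to 9474 normalized counts. Microglial medians were 55378 to 118104, rod medians 37005 to 80002, Müller glia medians 5331 to 11422 and bipolar medians 992 to 2446. In every library the microglial and rod medians were above the endothelial median. The part of VECs in the inhibitor counts was not tested. At least 10 reads in every library were also found for 8 of 9 Müller glia, 6 of 7 amacrine, 3 of 5 astrocyte and 4 of 5 erythroid markers. The summed endothelial markers lay between 198248 and 379015 normalized counts in control and between 118348 and 251918 in Bmal1;CKO, and all 14 had a negative log2 fold change, with a median of -0.50. Of the rod markers 11 of 12 were also negative (median -0.26), as were 6 of 8 bipolar markers (-0.60), while 8 of 9 microglial (0.40), 7 of 8 Müller glia (0.43) and 5 of 8 pericyte markers (0.88) were positive. None of these markers passed FDR < 0.05 in limma-trend, and 1 endothelial, 2 rod and 1 Müller glia marker were at an unadjusted p under 0.05. In bulk RNA, fewer cells of a type and less RNA per cell cannot be told apart. When each library was divided by the median of its endothelial markers, the groups still overlapped in 6 of the 6 genes tested. The mean was then higher in Bmal1;CKO for all 6. The divisor was 9109, 5984 and 8614 in control and 5380, 3542 and 9474 in Bmal1;CKO. It acts on every gene of a library alike, so this shift toward Bmal1;CKO is not a result about the inhibitors. For Cdkn1a this turned the direction, with 1.65 ± 1.00 in control and 1.83 ± 0.88 in Bmal1;CKO (SD, n = 3 each; exact permutation p = 0.8). Cdkn1b then had 0.112, 0.205 and 0.0703 of that median in control and 0.173, 0.501 and 0.142 in Bmal1;CKO (exact permutation p = 0.3).

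Control library 1, with its high Cdkn1a, had the highest endothelial sum and the highest microglial sum, 4103350 beside 1386180 to 3985840 in the other 5. It also had the highest Müller glia sum, 16666600 beside 4047950 to 13573700. Its Müller glia median was the lowest, 5331 beside 5998 to 11422. The medians were ordered otherwise: library 6 had the highest endothelial (9474) and microglial median (118104), beside 9109 and 100484 in library 1. Bmal1;CKO library 4 came close to it in the microglial sum (3985840) and had a Cdkn1a of 9973 normalized counts. Library 1 also had the lowest sums of amacrine (4679), bipolar (32251) and ganglion cell markers (7094), beside 8694 to 20852, 48015 to 81689 and 8061 to 17446 in the others. Its amacrine and ganglion cell medians (314 and 294) were also the lowest, but its bipolar median (1724) was not. Summed ganglion cell markers were low where Cdkn2c was low: both were lowest in library 1, next lowest in library 5 and highest in library 3. This was not particular to ganglion cells, since the pericyte sums had the same lowest, next lowest and highest library. Amacrine sums were also lowest in library 1 and next lowest in library 5. Astrocyte and erythroid sums were also lowest in library 1 and highest in library 3. Of the 8 ganglion cell markers, 5 reached 10 reads in every library. Pericyte markers were lowest in library 1 (2637) and highest in library 3 (46340), with Abcc9 and Myh11 at 0 in at least 1 library and 3 of 8 at 10 reads in every library. The part of these cell types in the values of Cdkn1a and Cdkn2c was not tested.

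Cdkn1b was highest in library 5, which also had the highest sums of rod (1064100) and bipolar cell markers (81689) and the lowest endothelial sum (118348). The median rod marker was also highest there (80002), but the median bipolar marker, at 1478, was the second lowest of the 6 libraries. Rod sums lay between 876060 and 1037840 in control and between 669225 and 1064100 in Bmal1;CKO. The part of these cells in the value of Cdkn1b was not tested.

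The genes whose profile over the 6 libraries was most like that of each inhibitor were taken from 12061 protein-coding genes that had 10 reads or more in each library. Among the nearest to Cdkn1a were Dock8, an exchange factor of leukocytes, and Cpne3, a copine, with root mean square differences of 0.0929 and 0.104 (log2). Both shared its high value in library 1: Dock8 had 4752 normalized counts there and 1223 to 2086 in the other 5. Nearest to Cdkn1b were Rpgrip1, a protein of the photoreceptor cilium (0.149), Sfi1, a centrosomal protein (0.152), and Med13, a Mediator subunit (0.157). Rpgrip1 had 36972 normalized counts in library 5 and 15267 to 27199 in the rest.

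Cdkn2c was nearest to Ptprr, a tyrosine phosphatase (0.125), Cygb, the globin cytoglobin (0.141), and Gfra4, a receptor of the GDNF family (0.165), all of them lowest in library 1 and highest in library 3. Cdkn2b was nearest to Pck2, Adap1 and Dnm2 (0.0732 to 0.0842), all lowest in library 2. Cdkn1c had Ints12, Bloc1s2 and Yars2 (0.0672 to 0.0803) and Cdkn2d had Alg12, Nudt16l1 and Tyms (0.0625 to 0.0674) as the nearest. Tyms, thymidylate synthase, makes a precursor of DNA and had 1249 to 2089 normalized counts. With 6 libraries many genes share a profile by library, and these distances are descriptions.

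The pathway around the inhibitors was read from 7 lists of 102 genes, of which 100 were tested. Of these, 40 had a positive and 60 a negative log2 fold change. In limma-trend 6 (6%) were at an unadjusted p under 0.05, beside 4.92% of all genes, and 0 were at FDR < 0.05. DESeq2 put 10 at an unadjusted p under 0.05 and 1, Ccng1, at that FDR, where over all genes it put 1216 and 67. In limma-trend the 6 became 12 when control library 1 or 3 was left out and 2 when Bmal1;CKO library 5 was. The count over all genes moved the same way, from 1007 to 1746, 2332 and 318. The list medians lay between -0.29 and 0.15, where all genes had 0.11. The groups did not overlap for 11.2% of all genes (6.62% higher and 4.54% lower in Bmal1;CKO). No list held more than 1 such gene higher or 2 lower. The genes named below at an unadjusted p under 0.05 were picked by that p. Separated groups and intervals without 0 follow in part from this choice.

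The targets of the inhibitors, 10 cyclins and kinases of G1 and S phase, had 3 positive and 7 negative values (median -0.27), and 2 of them were at an unadjusted p under 0.05. Ccnd1, cyclin D1, whose complexes with CDK4 and CDK6 are what INK4 proteins prevent, had 6954, 4193 and 5411 normalized counts in control and 10294, 9748 and 7375 in Bmal1;CKO. Every Bmal1;CKO library lay above every control library, and the log2 fold change was 0.74 ± 0.28 (SE), 95% interval 0.10 to 1.39. Ccne2, cyclin E2, a partner of CDK2, had 193, 569 and 290 normalized counts in control and 39.4, 98.5 and 135 in Bmal1;CKO. Here every Bmal1;CKO library was lower, with a log2 fold change of -1.96 ± 0.80 (SE). For both the limma-trend adjusted p was 0.883, so neither passed the test over all genes. Cdk4, which binds the INK4 proteins, had 19656 ± 2291 and 20233 ± 3089 normalized counts (SD, n = 3 each), which gave a difference of 0.04 (log2) with a 95% interval of -0.51 to 0.59.

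Downstream, the 11 pocket protein and E2F genes had 6 positive and 5 negative values (median 0.15), none at an unadjusted p under 0.05. The 12 subunits and cofactors of ubiquitin ligases that take part in the turnover of CIP/KIP proteins had 3 positive and 9 negative values (median -0.29), and again none was at that p. Transcripts do not show the level of p27 protein, which is set in large part by this turnover. Cks1b, the cofactor of SKP2 in the degradation of p27, had 6186 ± 1970 normalized counts in control and 3907 ± 1479 in Bmal1;CKO (SD, n = 3 each), with a log2 fold change of -0.67 ± 0.37 (SE) and a limma-trend adjusted p of 0.883.

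Among 24 transcription factors and Polycomb proteins known to act on CDK inhibitor genes, 13 values were positive and 11 negative (median 0.06), and 2 were at an unadjusted p under 0.05. Bmi1, the Polycomb protein that represses the Cdkn2a locus, had 1201, 2051 and 1978 normalized counts in control and 323, 775 and 801 in Bmal1;CKO. The genotypes did not overlap, and the log2 fold change was -1.53 ± 0.48 (SE), 95% interval -2.64 to -0.43, with a limma-trend adjusted p of 0.883. Cdkn2a had 0, 4 and 24 reads in control and 0, 1 and 5 in Bmal1;CKO, too few to test. A link between Bmi1 and Cdkn2a was not tested. Nr1d2, the clock repressor REV-ERBβ, had 543, 1200 and 790 normalized counts in control and 253, 374 and 457 in Bmal1;CKO, which was -1.19 ± 0.50 (SE) as log2 fold change, with the same adjusted p in limma-trend. Again every Bmal1;CKO library lay below every control library. Its relative Nr1d1 went the other way, with 17.2, 613 and 1081 normalized counts in control and 1159, 800 and 1585 in Bmal1;CKO. The groups overlapped, and the log2 fold change was 2.31 ± 1.41 (SE), 95% interval -0.97 to 5.58. Trp53, the gene of p53, had a log2 fold change of 0.06 (95% interval -0.62 to 0.74).

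Of 15 p53 target genes other than Cdkn1a that were tested, 5 had a positive and 10 a negative value (median -0.16), and 1, Ccng1, was at an unadjusted p under 0.05. Ccng1, cyclin G1, had 4516, 3188 and 4203 normalized counts in control and 1529, 1461 and 2022 in Bmal1;CKO. All Bmal1;CKO libraries lay below all control libraries, and the log2 fold change was -1.25 ± 0.28 (SE), with an adjusted p of 0.825 in limma-trend and 0.0335 in DESeq2. Cdkn1a, by comparison, had overlapping groups and an adjusted p of 0.921 in limma-trend. Mdm2, the p53 target that degrades p53, had a log2 fold change of -0.00 with a 95% interval of -1.27 to 1.27.

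The 12 genes of the Notch and arterial pathway, through which p27 is known to arrest endothelial cells, had 6 positive and 6 negative values (median 0.01), and 1 was at an unadjusted p under 0.05. Notch1 had 799, 1219 and 2084 normalized counts in control and 2398, 2316 and 3219 in Bmal1;CKO. The genotypes did not overlap, and the log2 fold change was 1.05 ± 0.40 (SE), 95% interval 0.11 to 1.98, with a limma-trend adjusted p of 0.883. Gja4, the gene of the arterial connexin that links Notch to p27, had 9724, 3848 and 6042 normalized counts in control and 10771, 4857 and 7416 in Bmal1;CKO, with overlap and a log2 fold change of 0.26 (95% interval -0.72 to 1.24). The 16 genes of cycling cells had 4 positive and 12 negative values (median -0.19), none at an unadjusted p under 0.05, and Mki67, the gene of the Ki-67 protein, stood at 0.12 (95% interval -0.64 to 0.89).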

How the data were processed

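RNA from 3 control and 3 Bmal1;CKO VEC samples was amplified with Smart v4, made into Nextera XT libraries and sequenced on a HiSeq2000. The authors used FastQC, Trimmomatic, Bowtie with mm10 (Ensembl GRCm38), featureCounts and DESeq2, whose versions are not given in the sources used here. The deposited values are a signal: read counts per gene, scaled by the authors with the size factors of DESeq2. The authors' comparison (mean, log2 fold change, standard error, Wald statistic, p-values) is also in the table and was not used.

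The columns name the genotype but their numbers differ from those of the labels, so no column was matched to a single sample and each stood as 1 library of its genotype. Dividing each column by its smallest step gave whole reads (tolerance 0.01) for 100% of the values, with size factors of 0.711 to 1.40 and 71145068 to 104017800 reads on genes. P-values measure the spread between these samples, which the study's methods describe as biological replicates.

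The test was limma-trend (limma 3.58.1, R 4.3.3) on log2(normalized count + 1) for genes that reached 10 reads in 3 or more libraries, with a term for genotype and Benjamini-Hochberg adjustment over all 20459 genes. Single values were compared with two-sided exact permutation tests. Alternatives were pseudocounts of 0.5 and 10, 2 other filters, edgeR 4.0.16 with TMM or DESeq2 size factors, DESeq2 1.42.0, limma-voom, TMM-scaled log2 CPM (prior count 2), and each library left out. Lengths and coordinates are those of GENCODE M21 (GRCm38), and promoters those of RefSeq. Other steps used Python 3.11.15 with scipy 1.17.1, numpy 2.4.6, matplotlib 3.10.9 and pandas 2.3.3.

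The inhibitors and all gene lists were chosen with earlier results of these data known. Named are the 7 inhibitors, Arntl, up to 3 genes per pathway list at an unadjusted p under 0.05, and the 3 genes of nearest profile per inhibitor, of which 1 is not reported here. Cdk4, Cks1b, Trp53, Nr1d1, Mdm2, Gja4 and Mki67 were named for their role after their values were seen.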

Additional observations from a re-analysis of the deposited data

How the results depend on the processing

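No CDK inhibitor gene was at an unadjusted p under 0.05 in the limma-trend fit or in any of 15 alternatives, and the lowest adjusted p over all of them was 0.564 (Cdkn1a). Cdkn1b kept its direction in all 15 (0.22 to 0.76). With 1 library left out, the log2 fold change ran from -0.64 to 0.32 for Cdkn1a (0.32 without control library 1), from -0.030 to 0.32 for Cdkn1c (-0.030 without control library 3), from -0.0066 to 0.50 for Cdkn2b (-0.0066 without control library 2), from -0.44 to 0.38 for Cdkn2c (-0.44 without control library 1, -0.24 without Bmal1;CKO library 4), from -0.18 to 0.14 for Cdkn2d (-0.09 without control library 2, -0.18 without Bmal1;CKO library 4) and from -0.49 to 0.029 for Arntl (0.029 without control library 2). Cdkn2c was also negative with edgeR (-0.076 with TMM, -0.063 with DESeq2 size factors), with DESeq2 (-0.063) and with limma-voom (-0.054). Pathway genes at an unadjusted p under 0.05 numbered 6, and 10 with DESeq2, which put 1 at FDR < 0.05. With 1 library left out they numbered 2 to 12: 12 when control library 1 or 3 was left out and 2 when Bmal1;CKO library 5 was. All genes at that p numbered 1007, and 318 to 2332 with 1 library left out; at FDR < 0.05 there were 0, and 67 with DESeq2, 6 without control library 1, 1 with no filter and 1 with at least 10 reads in every library. The causes were not tested. No paired analysis was possible because the columns carry numbers that do not match those of the labels. Cdkn2a, with 34 reads in all, did not pass the filter on reads and was not tested.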
